A study of Homo sapiens with 6 samples.

Results

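The transcripts described here are 9 genes of antioxidant defence and iron storage in T47D cells, chosen by symbol from the deposited table: NQO1, HMOX1, GCLC, GCLM, TXNRD1, SRXN1, TXN, FTH1 and FTL. All 9 of the 17891 genes in the table that carry these symbols were found, and all 9 passed the filter on low counts. RNA was sequenced in 6 libraries of T47D, an established human breast cancer line of the luminal, hormone receptor-positive type. In the PRL group (3 libraries) the cells carried a puromycin-selectable pLVX lentivirus with PRL, the gene of the hormone prolactin, and in the control group (3 libraries) the same lentivirus without it. Both groups were grown in RPMI1640 medium with serum and had no further treatment. The series calls the 3 libraries of a group biological replicates, and whether they came from separate transductions is not given in the sources used here.

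NRF2, the product of NFE2L2, is a transcription factor that KEAP1 and the ubiquitin ligase subunit CUL3 keep low in unstressed cells. Oxidants and electrophiles block this degradation, and NRF2 then binds antioxidant response elements together with small MAF proteins and raises genes that make glutathione, recycle thioredoxin, reduce quinones, break down heme and store iron. BACH1, a heme-sensing repressor, competes for the same elements, above all at HMOX1 and the ferritin genes. Ferritin is also set at translation, since iron regulatory proteins hold ferritin mRNA silent when iron is scarce, so a ferritin transcript level is not a ferritin protein level.

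Library sizes were 16211146 to 16646457 counts in the PRL group and 16432849 to 17402348 in the control group. The TMM factors (the scaling described below) were 1.08 to 1.11 in PRL libraries and 0.848 to 0.955 in control libraries. With both, 1 count stood for 0.0550 to 0.0677 CPM (counts scaled to a common library size). PRL itself had 8277, 8097 and 7789 counts in PRL libraries, against 3, 3 and 1 in control libraries. Control libraries differed from each other more than PRL libraries did, with a chi-square of 12.7 to 24.4 per gene between pairs of controls and 1.66 to 2.17 between pairs of PRL libraries, where sampling noise gives about 1. Ribosomal protein genes took 9.58% to 10.1% of counts in PRL libraries and 14.6% to 17.5% in control libraries. The luminal markers were present in both groups, with all 10 listed genes past the filter and a summed level of 17494 to 17730 TPM in PRL libraries and 17794 to 19384 TPM in control libraries. Single luminal markers still changed: by the test described below 4 were higher in the PRL group, 4 were lower and 2 did not pass. The same test called 62.9% of all tested genes.

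Levels are given as the deposited TPM (transcript level after correction for gene length and library size). Changes were tested with edgeR's quasi-likelihood test on TMM-scaled counts (a trimmed mean sets the scale of each library), and are log2 fold changes of PRL over control with a standard error (SE) and a p adjusted over all 14076 tested genes. The scales do not share a centre. Over the genes that each fit tested, the median change was 0.01 (log2) on TMM-scaled counts, 0.26 on library totals and 0.39 on TPM. A TPM difference therefore carries that shift, and a change is called here on the TMM scale unless another is named. In bulk RNA, a change in the share of cells that carry a transcript and a change in its amount per cell cannot be told apart.

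The 9 genes did not move as a block. HMOX1, SRXN1, GCLC and FTL rose in the PRL group, TXN, NQO1 and TXNRD1 fell, and GCLM and FTH1 did not pass the test. That makes 7 of 9 called, in a comparison that called 62.9% of all tested genes, 32.4% as higher and 30.5% as lower. The median log2 fold change of the 9 genes was 0.25, beside 0.01 for all genes tested. PRL and control libraries did not overlap in TMM-scaled CPM for 8 of the 9 genes, where 69.5% of all tested genes showed such a separation. The calls of 6 genes (HMOX1, SRXN1, GCLC, FTL, NQO1 and TXN) kept their direction and side of the threshold in all 16 alternatives run, while those of GCLM, TXNRD1 and FTH1 depended on the scale.

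**Figure D1:**
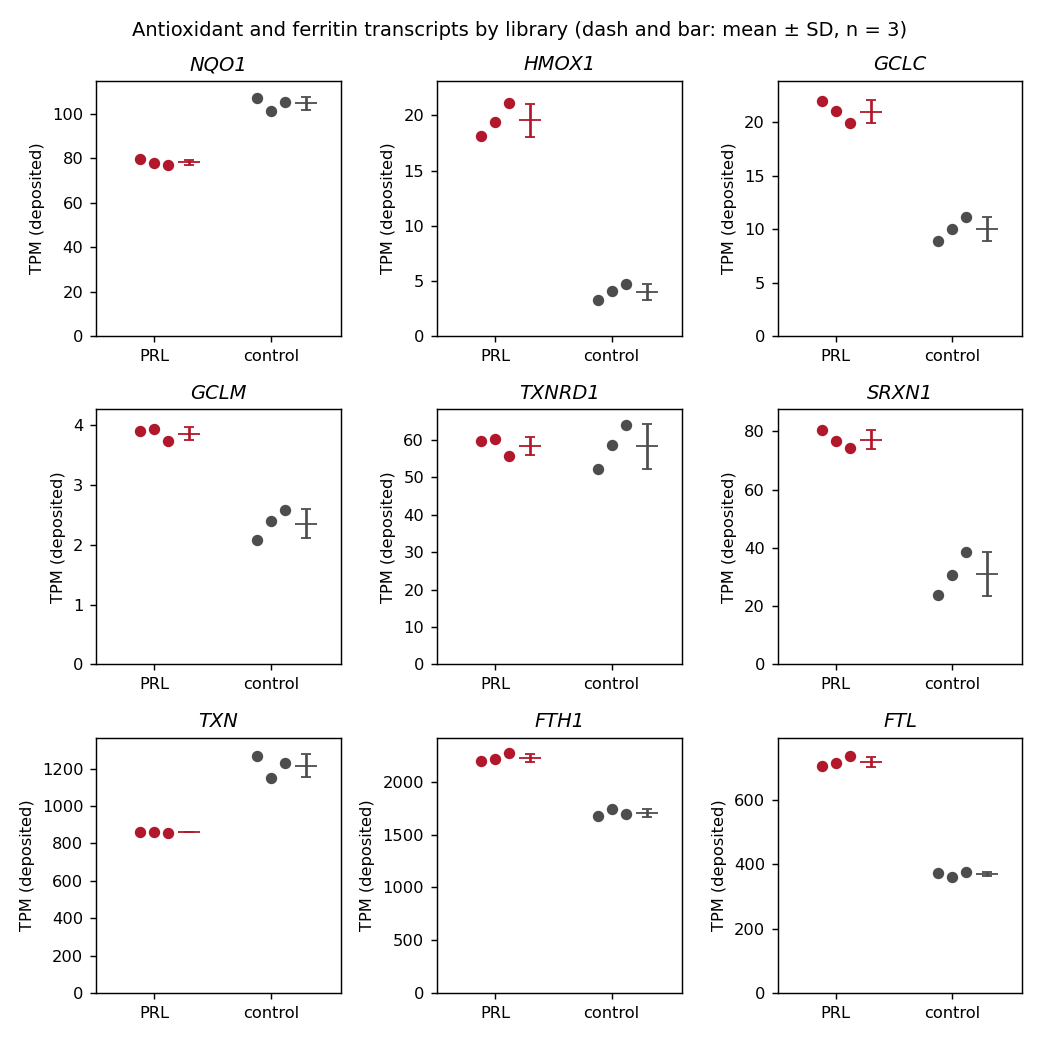
Deposited TPM of the 9 transcripts in each library, with 1 panel per gene, points for libraries (PRL left, control right) and a dash with a bar for the mean ± SD (n = 3). All PRL libraries lie above all control libraries for 6 genes and below them for NQO1 and TXN, while TXNRD1 overlaps at 58.4 and 58.2 TPM on average.

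HMOX1 (chr22:35380361-35394214, plus strand, GENCODE 29 on GRCh38, as for the positions of the other genes) encodes the inducible heme oxygenase, which opens the heme ring and releases iron, carbon monoxide and biliverdin. It had 18.1, 19.4 and 21.1 TPM in PRL libraries, against 3.24, 4.08 and 4.70 TPM in control libraries. Every PRL library lay far above every control library. The log2 fold change was 1.84 (SE 0.13, edgeR's adjusted p = 1.42e-06), a 3.59-fold rise and, on TMM-scaled counts of all 6 libraries, the only change of at least 2-fold among the 9 genes. SRXN1 also reached it on library totals (1.12), on FPKM (1.11), on TPM (1.31) and without control replicate 3 (1.02), GCLC on TPM (1.004) and TXN without control replicate 2 (-1.05). Of all tested genes, 15.8% were called with a change of at least 2-fold, 10.6% as higher and 5.29% as lower, and 95.1% had a smaller absolute change than HMOX1. The transcript was among the less abundant ones in control cells, with 62, 69 and 80 counts there and 266, 294 and 315 in PRL libraries, so that counting error alone amounts to 12.7% of the lowest count.

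HMOX1 and FTL are abundant in macrophages, and the summed level of macrophage and immune markers was higher in PRL libraries too, while single markers went both ways. The sum was 21.8 to 23.0 TPM in PRL libraries and 6.64 to 8.48 TPM in control libraries. CD68, a lysosomal protein that other cells make too, was most of the sum in PRL libraries only, at 16.6 ± 0.441 TPM in the PRL group and 2.90 ± 0.326 TPM in the control group (SD, n = 3 each). PTPRC, the pan-leukocyte marker, was near 1 TPM in both groups (1.09 ± 0.267 TPM in PRL and 0.827 ± 0.146 TPM in control libraries) and did not pass the test (log2 fold change 0.04, adjusted p = 0.925 by edgeR). CSF1R, the macrophage growth factor receptor, had 11 counts over the 3 PRL libraries and 11 over the 3 control libraries. In that list of 8 genes, 7 were in the table, none of them at 0 in every library, and of 5 tested genes 3 rose and 1 fell. Their part in the rise of HMOX1 and FTL was not tested. Of the other markers, 3 of 4 tested basal genes rose and 1 fell, 1 of 2 stromal and endothelial genes rose (COL1A1), and the 1 tested erythroid gene did not pass. Across all tested genes 32.4% were called higher and 30.5% lower, so counts from such short lists cannot single out a cell type.

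Glutathione is made in a rate-limiting step by glutamate-cysteine ligase, in which GCLC (chr6:53497341-53616970, minus strand) is the catalytic and GCLM (chr1:93885205-93909456, minus strand) the modifier subunit. GCLC had 22.0, 21.1 and 19.9 TPM in PRL libraries, against 8.86, 10.0 and 11.1 TPM in control libraries. The groups were well apart, and the log2 fold change was 0.58 (SE 0.08, edgeR's adjusted p = 1.06e-04). GCLM was the least abundant of the 9 transcripts, with 3.90, 3.92 and 3.72 TPM in PRL libraries, against 2.08, 2.40 and 2.57 TPM in control libraries. Its PRL libraries also lay above its control libraries, but on TMM-scaled counts the difference was small and missed the threshold (log2 fold change 0.25, SE 0.10, edgeR's adjusted p = 0.0576). GCLM passed on library totals (0.50, adjusted p = 0.0045 by edgeR), on TPM (0.54, adjusted p = 0.00261 by limma) and without control replicate 3 (0.29, adjusted p = 0.0292 by edgeR), and its adjusted p ranged from 0.00261 to 0.199 over 16 alternatives.

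The GCLM promoter carries a sequence with the core letters of an antioxidant response element close to its start, shown because NRF2 is known to act through such elements. In the windows printed here the capitals mark TGACNNNGC, read on either strand. This window lies on chr1:93909431-93909494, minus strand, from base -64 to -1 before the RefSeq start (GRCh38.p14).
GCLM: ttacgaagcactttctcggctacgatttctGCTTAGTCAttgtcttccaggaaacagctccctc
RefSeq promoter windows of 300 bases (250 before to 50 after a start) were at hand for 7 of the 9 genes, in 8 entries. The core letters occurred in those of GCLM and TXNRD1 and in 13.3% of all 35116 promoter windows, so a match is frequent by itself. The windows of GCLC, TXN, NQO1, FTL and SRXN1 hold no such letters, which says nothing of elements farther away. The windows of HMOX1 and FTH1 were not used here. The AP-1 letters TGANTCA, which can overlap an antioxidant response element, occurred in none of the 8 windows and in 7.71% of all.

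NQO1 (chr16:69706996-69726951, minus strand) encodes a quinone reductase that turns quinones directly into hydroquinones and is a standard marker of NRF2 activity. It had 79.6, 77.8 and 77.1 TPM in PRL libraries, against 107.3, 101.3 and 105.4 TPM in control libraries. The PRL libraries sat close together below all control libraries. The log2 fold change was -0.88 (SE 0.10, edgeR's adjusted p = 3.2e-05) on TMM-scaled counts and -0.42 (adjusted p = 4.48e-04 by limma) on TPM. NQO1 thus moved against HMOX1, SRXN1 and GCLC in every alternative run. Of its annotated exon bases, 17.7% are also covered by AC092115.2 on the opposite strand.

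The thioredoxin genes also split. SRXN1 (chr20:646615-653370, minus strand) encodes sulfiredoxin, which repairs overoxidised peroxiredoxins. It had 80.4, 76.7 and 74.2 TPM in PRL libraries, against 23.8, 30.6 and 38.7 TPM in control libraries, and its log2 fold change was 0.87 (SE 0.10, edgeR's adjusted p = 4.48e-05). The level was 106 ± 1.84 CPM in the PRL group and 57.6 ± 8.90 CPM in the control group (SD, n = 3 each), so control libraries scattered more, yet the highest of them stayed below the lowest PRL library. The annotation places AL121758.1 over 85.0% of the exon bases of SRXN1 on the same strand, so the division of reads between them is uncertain.

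TXN (chr9:110243811-110256640, minus strand) encodes thioredoxin, the small protein that reduces disulfides in ribonucleotide reductase, peroxiredoxins and transcription factors. It had 863, 862 and 858 TPM in PRL libraries, against 1270.3, 1149 and 1230.3 TPM in control libraries. The PRL libraries were nearly equal and all lower, and the log2 fold change was -0.96 (SE 0.11, edgeR's adjusted p = 3.73e-05). TXN is a very short gene, at the 3.18th percentile of length, and after each library's trend on gene length was removed its log2 fold change was -0.43 (adjusted p = 1.43e-04 by edgeR).

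TXNRD1 (chr12:104215779-104350305, plus strand) encodes the selenoprotein that reduces thioredoxin with NADPH. It had 59.5, 60.0 and 55.7 TPM in PRL libraries, against 52.1, 58.7 and 64.0 TPM in control libraries, so the groups overlapped on that scale. On TMM-scaled counts all PRL libraries lay below all control libraries, with 113 ± 3.74 CPM in the PRL group and 152 ± 6.16 CPM in the control group (SD, n = 3 each) and the log2 fold change was -0.43 (SE 0.07, edgeR's adjusted p = 4.72e-04). The call ended on library totals (-0.17, adjusted p = 0.0653 by edgeR), and on TPM the value was 0.01 (adjusted p = 0.941 by limma). The adjusted p of TXNRD1 ranged from 1.15e-06 to 0.941 over 16 alternatives.

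TXNRD1 has a pair of RefSeq starts, and the core letters of the antioxidant response element precede both. They are printed as the counterpart to GCLM, whose window holds the same letters. The first window lies on chr12:104215650-104215718 and the second on chr12:104286900-104286968, both on the plus strand (GRCh38.p14). A further match, on the opposite strand, spans the first start itself and is not shown.
TXNRD1 first start: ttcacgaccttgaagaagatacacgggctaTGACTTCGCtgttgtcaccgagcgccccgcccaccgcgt
TXNRD1 second start: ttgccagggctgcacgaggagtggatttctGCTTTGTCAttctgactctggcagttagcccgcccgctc

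Ferritin is a hollow shell of heavy chains (FTH1, chr11:61959718-61967660, minus strand), which oxidise iron for entry, and light chains (FTL, chr19:48965301-48966878, plus strand), which help it to mineralise inside. Its transcripts were among the most abundant in these cells: FTH1 ranked 61st in PRL libraries and 97th in control libraries among 17891 genes by mean TPM, and FTL 185th in PRL libraries and 380th in control libraries. FTL had 705 TPM, 715 TPM and 736 TPM in PRL libraries, against 374, 362 and 375 TPM in control libraries. The PRL libraries lay far above, and the log2 fold change was 0.50 (SE 0.10, edgeR's adjusted p = 0.00112) on TMM-scaled counts and 0.96 (adjusted p = 2.46e-07 by limma) on TPM. FTL too is a short gene (5.16th percentile), and without the length trend its log2 fold change was 0.99 (adjusted p = 3.24e-07 by edgeR).

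FTH1 had 2198 TPM, 2213 TPM and 2269 TPM in PRL libraries, against 1679, 1743 and 1690.3 TPM in control libraries. All PRL libraries were higher in TPM, whereas in TMM-scaled CPM the groups overlapped, at 1422 ± 55.8 CPM in the PRL group and 1495 ± 153 CPM in the control group (SD, n = 3 each). The log2 fold change was -0.07 (SE 0.10, edgeR's adjusted p = 0.553) on TMM-scaled counts. It was higher in the PRL group on library totals (0.19, adjusted p = 0.0273 by edgeR), on TPM (0.39, adjusted p = 6.76e-05 by limma) and without the length trend (0.29, adjusted p = 7.9e-04 by edgeR), and at 0.02 (adjusted p = 0.779 by edgeR) without control replicate 1. Over 16 alternatives its adjusted p ranged from 6.76e-05 to 0.856. The annotation names 25 pseudogenes of FTH1, 16 of FTL and 7 of TXN, and reads shared with them make the levels of these 3 genes less certain. BEST1 lies across 62.4% of the exon bases of FTH1 on the opposite strand. It had 320 counts over the PRL libraries and 123 over the control libraries, under 1% of those of FTH1. How reads in the shared bases were assigned is not given in the sources used here, so the effect of this overlap on FTH1 was not tested.

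Both ferritin transcripts carry an iron-responsive element before their coding part, and so does SLC40A1, the iron exporter ferroportin. The transferrin receptor TFRC carries several after its coding part, where the same regulatory proteins protect the mRNA. The sites are printed because they mark the members whose translation answers to iron. The search took a C, 5 bases, the loop CAGTGN and 5 bases that can pair with the 5 before the loop, on the sense strand of 1 principal GENCODE 29 transcript per gene. Capitals mark the loop.
FTH1: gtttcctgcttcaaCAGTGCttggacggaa
FTL: gtctcttgcttcaaCAGTGTttggacggaa
SLC40A1: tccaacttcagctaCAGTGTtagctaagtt
TFRC, a site after the coding part: gtaattatcgggaaCAGTGTttcccataat
Of 19886 genes searched, 21 (0.106%) held these letters before the coding part and 102 (0.513%) after it. Among the 9 genes only FTH1 and FTL did, and TFRC held 4 such sites. SLC40A1 had 122.5, 120.2 and 118.6 TPM in PRL libraries, against 52.8, 63.8 and 91.9 TPM in control libraries (log2 fold change 0.36, adjusted p = 0.0294 by edgeR). Its call ended without any PRL library or without control replicate 1 or 2, with an edgeR adjusted p of 0.0683 to 0.13. TFRC had 174.9, 169.6 and 165.5 TPM in PRL libraries, against 126.7, 154 and 213.5 TPM in control libraries, and so overlapped on that scale. On TMM-scaled counts it fell (log2 fold change -0.37, SE 0.12, edgeR's adjusted p = 0.0235), a call that ended on library totals (-0.12, adjusted p = 0.461 by edgeR) and on TPM (0.08, adjusted p = 0.653 by limma), and without any PRL library (edgeR adjusted p of 0.0651 to 0.0714).

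**Figure D2:**
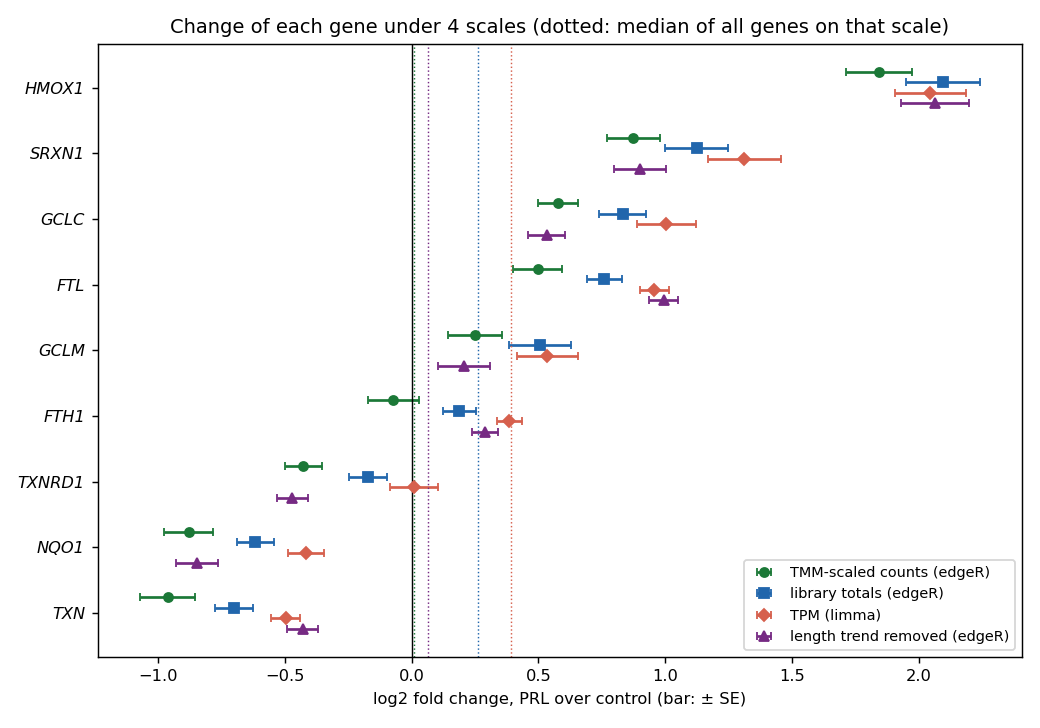
Log2 fold change of PRL over control with its SE for each of the 9 genes under 4 scales, with dotted lines at the median of all genes on each scale. HMOX1 (at least 1.84), SRXN1, GCLC and FTL stay right of 0 on all 4 scales and NQO1 and TXN left of it, while FTH1 runs from -0.07 to 0.39 and TXNRD1 from -0.47 to 0.01.

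On every scale in the plot HMOX1 was highest, SRXN1, GCLC and FTL lay above GCLM and FTH1, and TXNRD1, NQO1 and TXN lay below them. Relative to the median of all genes on log2(TPM + 1) (0.39), FTH1 (0.39) lay at that median and GCLM (0.54) above it. TXNRD1 (0.01), NQO1 (-0.42) and TXN (-0.50) lay below it. HMOX1 (2.04), SRXN1 (1.31), GCLC (1.004) and FTL (0.96) lay above it. The added 1 shrinks the change of scarce transcripts such as GCLM and HMOX1, whose mean TPM was 1.64-fold and 4.88-fold higher in the PRL group.

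Ratios of partner transcripts within a library do not depend on the scale of the library, though they can depend on its trend with gene length. The FTH1 to FTL ratio of TPM was 3.12, 3.10 and 3.08 in PRL libraries, against 4.50, 4.82 and 4.51 in control libraries. The groups did not overlap, and FTL made up 24.3% to 24.5% of ferritin TPM in PRL libraries and 17.2% to 18.2% in control libraries. Both ferritin transcripts together took 2903 to 3006 TPM in PRL libraries and 2053 to 2104 TPM in control libraries. This sum, unlike the ratios, depends on the scale of the library. In TMM-scaled CPM, FTH1 averaged 1422 in the PRL group and 1495 in the control group, and FTL 327 and 232. The GCLC to GCLM ratio was 5.65, 5.38 and 5.35 in PRL libraries, against 4.26, 4.17 and 4.33 in control libraries. The TXNRD1 to TXN ratio was 0.0690, 0.0697 and 0.0649 in PRL libraries, against 0.0410, 0.0511 and 0.0520 in control libraries. The last ratio pairs a long with a short gene, and without the length trend TXNRD1 (log2 fold change -0.47) and TXN (-0.43) were lower by about the same amount. On the log2 scale the difference of PRL minus control was -0.57 for FTH1 to FTL, 0.36 for GCLC to GCLM and 0.51 for TXNRD1 to TXN. Each gave p = 0.1 in a two-sided exact permutation test over 20 regroupings, the smallest p that 3 libraries against 3 can give, and Benjamini-Hochberg adjustment over the 3 ratios leaves each at 0.1.

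**Figure D3:**
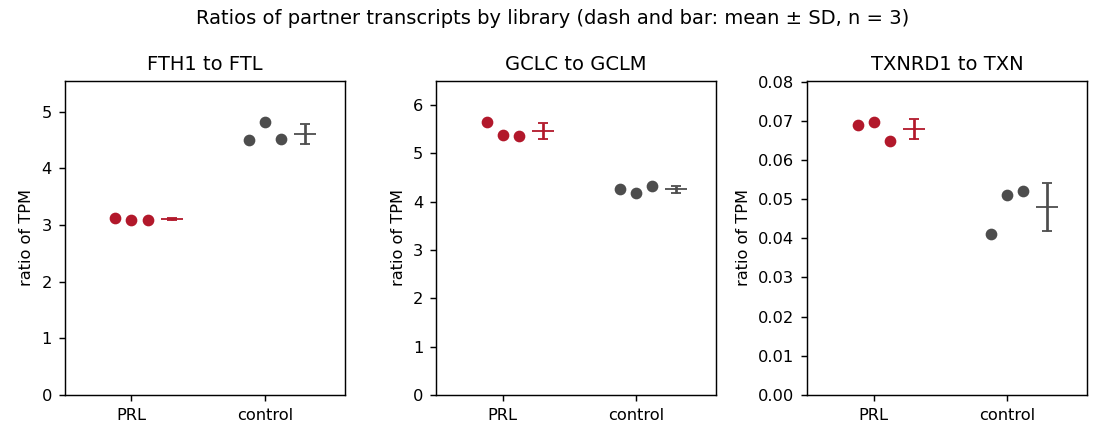
Ratio of TPM of partner transcripts in each library (PRL left, control right), with a dash and a bar for the mean ± SD (n = 3). FTH1 to FTL averages 3.10 in PRL and 4.61 in control libraries, GCLC to GCLM 5.46 in PRL and 4.25 in control libraries, and TXNRD1 to TXN 0.0678 in PRL and 0.0480 in control libraries.

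Genes of the surrounding pathways were taken from 7 lists with 123 genes, of which 114 were tested. Of these, 34 rose, 50 fell and 30 did not pass, so that 73.7% were called, beside 62.9% of all tested genes. Of the genes that each fit tested, 7113 were higher and 1381 lower on TPM, against 6430 and 2398 on library totals. List counts on those scales therefore carry the same upward shift. The TPM fit tested only genes with a mean TPM of at least 1, so its counts leave out scarcer genes of each list. The regulators of NRF2 were mostly higher: of 11 genes 9 rose, 1 fell and 1 did not pass (median log2 fold change 0.65), and on TPM or library totals 10 were higher and none lower. This list holds partners and repressors of NRF2 alike, so its median is not a measure of NRF2 activity. NFE2L2, which encodes NRF2, had 42.4, 40.4 and 42.2 TPM in PRL libraries, against 13.1, 18.1 and 26.2 TPM in control libraries, with no overlap despite the wide scatter of controls (log2 fold change 0.70, SE 0.15, edgeR's adjusted p = 0.00193). The repressor gene BACH1 rose as well, with 7.01 ± 0.376 TPM in the PRL group and 3.01 ± 0.440 TPM in the control group (log2 fold change 0.78, adjusted p = 4.29e-05 by edgeR). Of the small MAF partners, which lack an activation domain of their own, MAFF rose by a log2 fold change of 2.08 (adjusted p = 3.42e-07 by edgeR) and MAFG by 1.01 (adjusted p = 9.31e-06 by edgeR). NFE2L1, a relative of NRF2 known for control of proteasome genes, rose by 0.72 (adjusted p = 5.49e-05 by edgeR). KEAP1 was 24.8 ± 0.951 TPM in the PRL group and 24.8 ± 0.15 TPM in the control group (SD, n = 3 each), and on TMM-scaled counts it fell by 0.45 (adjusted p = 0.00171 by edgeR), a call that ended on library totals (-0.19, adjusted p = 0.0776 by edgeR) and on TPM (0.00, adjusted p = 0.99 by limma).

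Other textbook targets of NRF2 went both ways. Of 20 tested genes 4 rose, 6 fell and 10 did not pass, and the median log2 fold change was -0.01. The share called was 50%, beside 62.9% of all tested genes. SLC7A11, which brings in cystine for glutathione, had 1.99, 1.73 and 1.42 TPM in PRL libraries, against 0.47, 0.67 and 0.5 TPM in control libraries, low in both groups but without overlap (log2 fold change 1.19, SE 0.17, edgeR's adjusted p = 1.42e-04). A pair of genes of the pentose phosphate path, which supplies NADPH, moved the other way. TALDO1 fell by 0.70 (adjusted p = 2.44e-04 by edgeR) and PGD by 0.64 (adjusted p = 8.15e-05 by edgeR) on the log2 scale, and PGD missed the threshold on TPM (-0.19, adjusted p = 0.0541 by limma). The fall of TALDO1 was smaller, though still called, without the length trend (-0.33) and on TPM (-0.23). EPHX1, the microsomal epoxide hydrolase, fell by 0.46 (adjusted p = 7.45e-04 by edgeR), and by less without the length trend (-0.21) and on TPM (-0.24). On TPM the list had 9 genes higher and 2 lower, on library totals 11 higher and 4 lower, without the length trend 7 higher, and without PRL replicate 3 only 2 higher.

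In the glutathione list 5 of 22 tested genes rose, 14 fell and 3 did not pass (median log2 fold change -0.44). The share called was 86.4%, beside 62.9% of all tested genes. The falls with the smallest p were in glutathione transferases of the mu class, GSTM3 (28.5 ± 0.658 TPM in the PRL group and 100.9 ± 9.03 TPM in the control group, log2 fold change -2.28, adjusted p = 2.84e-08 by edgeR), GSTM2 (-1.23, adjusted p = 4e-06 by edgeR) and GSTM4 (-1.10, adjusted p = 4.34e-06 by edgeR). These genes resemble one another, so reads may be split between them. CHAC1, which degrades glutathione and is a target of the ATF4 stress pathway, rose to 10.5 ± 0.147 TPM in the PRL group, against 3.05 ± 0.356 TPM in the control group (SD, n = 3 each, log2 fold change 1.38, adjusted p = 1.18e-05 by edgeR). On TPM 8 genes of the list were higher and 8 lower, and on library totals 7 higher and 9 lower.

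In the thioredoxin and peroxiredoxin list 3 of 18 tested genes rose, 12 fell and 3 did not pass (median log2 fold change -0.58). The share called was 83.3%, beside 62.9% of all tested genes. TXNIP, which binds thioredoxin and restrains glucose uptake, rose to 99.1 ± 4.14 TPM in the PRL group, against 30.6 ± 5.71 TPM in the control group (SD, n = 3 each, log2 fold change 1.32, adjusted p = 1.56e-06 by edgeR). It moved opposite to TXN. SESN2, a stress-induced inhibitor of mTORC1, rose by 0.83 (adjusted p = 2.01e-05 by edgeR), while the endoplasmic reticulum peroxiredoxin PRDX4 fell by 0.77 (adjusted p = 3.06e-05 by edgeR) and the methionine sulfoxide reductase MSRB3 by 1.44 (adjusted p = 5.01e-06 by edgeR). PRDX4 was at -0.31 both without the length trend and on TPM, a smaller fall that was still called. On TPM 6 genes of the list were higher and 7 lower, and on library totals 5 higher and 11 lower. Among 7 superoxide and catalase genes 1 rose, 3 fell and 3 did not pass (57.1% called), and on TPM or library totals 2 were higher. CAT, catalase, was 96.6 ± 2.19 TPM in the PRL group and 37.1 ± 14.2 TPM in the control group (SD, n = 3 each, log2 fold change 0.95, adjusted p = 6.09e-04 by edgeR), whereas SOD3 fell by 1.64 (adjusted p = 3.42e-06 by edgeR) and SOD1 by 0.74 (adjusted p = 1.16e-04 by edgeR). The fall of SOD1 was smaller, though still called, without the length trend (-0.25) and on TPM (-0.28). NQO2, the paralog of NQO1, fell by 0.56 (adjusted p = 0.00168 by edgeR), a call that ended on TPM (-0.11, adjusted p = 0.309 by limma) and without the length trend (-0.15, adjusted p = 0.18 by edgeR).

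Iron and heme genes were divided too. In the iron list 8 of 21 tested genes rose, 7 fell and 6 did not pass (median log2 fold change -0.03). The share called was 71.4% in the iron list and 64.7% in the heme list, beside 62.9% of all tested genes. Of all tested genes 32.4% were higher and 30.5% lower, so a split in both directions is common by itself. The metalloreductase genes STEAP1 and STEAP2 rose by 2.32 (adjusted p = 1.62e-06 by edgeR) and 1.34 (adjusted p = 2.4e-05 by edgeR), and LCN2, which binds iron-carrying siderophores, rose by 2.13 (adjusted p = 1.31e-05 by edgeR). The zinc and iron importer SLC39A8 fell by 0.82 (adjusted p = 8.41e-05 by edgeR). Of the iron regulatory proteins, IREB2 rose by 0.63 (adjusted p = 2.27e-04 by edgeR) and ACO1 fell by 0.66 (adjusted p = 3.52e-04 by edgeR), and the call of ACO1 ended on TPM (-0.20, adjusted p = 0.19 by limma). NCOA4, the receptor that takes ferritin to lysosomes, did not pass (-0.07, adjusted p = 0.406 by edgeR) and was higher on TPM (0.37, adjusted p = 0.00491 by limma). On TPM the iron list had 11 genes higher and 1 lower, and on library totals 9 higher and 2 lower. These counts too carry the upward shift of all genes on both scales. Without PRL replicate 1, 2 or 3 it had 7, 5 or 6 genes higher and 4 lower each time. In the heme list 4 of 17 tested genes rose, 7 fell and 6 did not pass (median -0.22), with the synthesis enzyme UROS (-0.83, adjusted p = 2.63e-04 by edgeR) lower and ALAD (0.59, adjusted p = 3.63e-04 by edgeR) higher. HMOX2, the constitutive heme oxygenase, fell by 0.59 (adjusted p = 1.84e-04 by edgeR) where HMOX1 rose, but not past the threshold on TPM (-0.09, adjusted p = 0.325 by limma). On TPM the heme list had 5 genes higher and 3 lower.

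**Figure D4:**
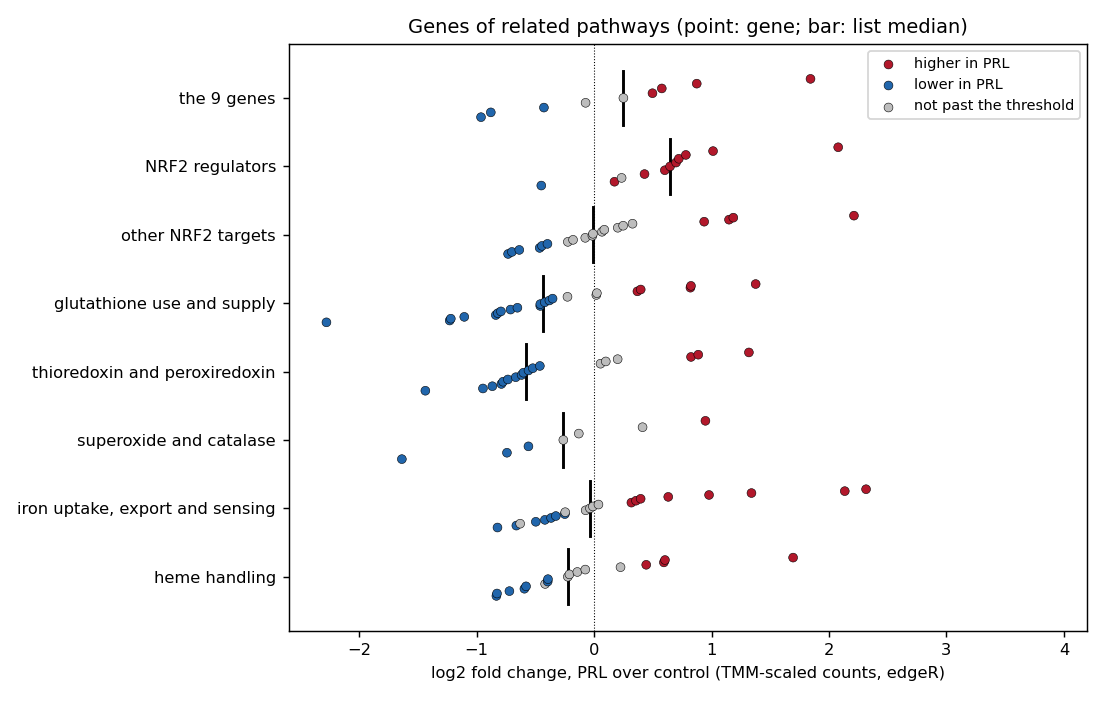
Log2 fold change of PRL over control on TMM-scaled counts for the tested genes of the 9-gene set and of 7 related lists, with 1 point per gene coloured by its edgeR call and a bar at the median of each list. The NRF2 regulators have the highest median (0.65) and the thioredoxin and peroxiredoxin list the lowest (-0.58), and every list holds genes on both sides of 0.

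On TMM-scaled counts of all 6 libraries only HMOX1 changed by at least 2-fold, and the genes whose log2 CPM over the 6 libraries followed it most closely were ARIH1, a ubiquitin ligase gene, and DVL1, a Wnt pathway gene, both with a Pearson correlation of 0.999. Their changes were smaller, with a log2 fold change of 0.31 for ARIH1 and 0.65 for DVL1. The 6 libraries form a group of 3 and a group of 3, and 313 of 9755 candidate genes correlated with HMOX1 above 0.99.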

How the data were processed

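Total RNA of 6 T47D libraries had been extracted with Trizol and sequenced by Illumina protocols, per the labels. HISAT2 2.1.0, Bowtie2 2.3.4.3 and the build GRCh38.p13 are named, per the submitters' processing notes, while the sources used here do not give the counting tool, the annotation or whether strand was used. The authors deposited 1 table of 17891 genes holding TPM, FPKM and an estimated count for each library, per the file headers, and 6 columns of group means that were not used. Of the deposited counts 44.1% to 45.9% per library were not whole, and they were rounded here.

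Samples were grouped by title. Counts were tested in R 4.3.3 with edgeR 4.0.16 (robust quasi-likelihood fit, group as the only term, filter by expression, TMM), adjusted by Benjamini-Hochberg over 14076 genes with a threshold of 0.05. Each SE was taken as the size of the log2 change over the square root of its F statistic. Counting errors cover sampling of reads only, since PCR copies are not independent. Alternatives were DESeq2's size factors, upper quartile and library totals as scalings, a filter that keeps genes reaching 1 CPM in 3 or more libraries, the unfiltered table, the DESeq2 1.42.0 test, limma 3.58.1 with a trend on log2(TPM + 1) or log2(FPKM + 1) for genes with a mean of at least 1, a block for the replicate number, removal of the trend on gene length in each library (mgcv 1.9.3), and each library left out. Relative gene length came from dividing the authors' counts by their FPKM. The 9 genes and all lists were chosen with earlier results of these data known. Beside the 9 genes, the text names the 4 genes of each pathway list with the smallest p, 12 further regulators and iron or antioxidant genes whatever their values, and the 2 genes most correlated with a member changed at least 2-fold. A few genes that these rules select are not reported here. Marker lists covered luminal, basal, macrophage and immune, stromal and endothelial, and erythroid cells. The tests were checked on simulated counts. Promoter sequences are from RefSeq (GRCh38.p14), and gene positions, overlaps and transcripts from GENCODE 29 (GRCh38).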

Additional observations from a re-analysis of the deposited data

How the results depend on the processing

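Of the 9 genes, 6 (HMOX1, SRXN1, GCLC, FTL, NQO1 and TXN) kept direction and call in all 16 alternatives. FTH1 changed sign on library totals (0.19), FPKM (0.19), TPM (0.39), without the length trend (0.29) and without control replicate 1 (0.020). TXNRD1 lost its call on library totals (-0.17) and reached 0.0084 on TPM. GCLM gained a call on library totals (0.50), upper quartile (0.30), the CPM filter (0.27), TPM (0.54), FPKM (0.34) and without control replicate 3 (0.29). Leaving out each library gave -0.11 to 0.02 for FTH1, 0.22 to 0.29 for GCLM and -0.46 to -0.39 for TXNRD1. Among other named genes, NCOA4 changed sign on library totals (0.18), FPKM (0.18) and TPM (0.37), and KEAP1 (0.0014) and TFRC (0.078) on TPM. The cause of these shifts was not tested, apart from the medians of all genes given above (0.20 on FPKM). Of the genes that each fit tested, 4554 were higher and 4300 lower on TMM-scaled counts, against 6430 and 2398 on library totals. The numbers were 5474 and 2360 on FPKM and 7113 and 1381 on TPM, where only genes with a mean of at least 1 were tested. Deviations of PRL and control libraries with the same replicate number were hardly correlated (-0.11, 0.04 and -0.06). PRL libraries differed little from each other (chi-square of 1.66 to 2.17 per gene), so these correlations say little about pairing. The fit with the replicate block called 8531 genes, against 8854 without it, and changed no call among the 9 genes.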
